A study of Mus musculus with 8 samples.

Results

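B3 and B3A are the older subfamilies of the mouse B2 family of short interspersed elements (SINEs). They were taken from a table of open chromatin regions and repeats as the copies annotated to class SINE, family B2 and subfamily B3 or B3A. The rule found 227272 copies (140430 of B3 and 86842 of B3A) among 4835895 regions, of which 2968871 were retrotransposon copies. The rule reads the repeat annotation and no measured value, while the subfamilies themselves were picked with earlier results of these data known.

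SINEs are short retrotransposons that encode no protein and were copied into new places by the enzymes of LINE elements. B2 elements descend from a transfer RNA gene and carry an internal promoter of RNA polymerase III. B3 and B3A stopped spreading earlier than the B2_Mm subfamilies, so their copies have diverged further from each other, and a share of B2 copies is known to carry a binding motif of CTCF, the protein that anchors chromatin loops. B1 elements, which form most of the family annotated as Alu in the mouse, are the other abundant young SINEs, B4 elements combine B1-like and tRNA-like parts, and MIR elements are ancient SINEs shared across mammals.

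Accessibility was measured by ATAC-seq, in which a transposase cuts nuclear DNA where it can reach it and each sequenced fragment end marks a cut. The cells were primary lung fibroblasts of the mouse, and the series asks how loss of cGAS, the cytosolic DNA sensor that signals through STING, changes chromatin accessibility. The cGAS KO group had 4 libraries and the WT group 4, each from a different mouse, with 2 female-labelled (F1, F2) and 2 male-labelled (M1, M2) mice per genotype. Per the labels, all cultures were kept at 5% CO2 and 5% O2, and the strain, the age and the type of KO allele were not given in the sources used here. The deposited values are featureCounts counts of read ends, and a read end that lay in a copy and in an open chromatin region (OCR, a peak of the deposited set) was split equally between both. The bulk libraries cannot tell fewer cells with an open copy from less opening per cell.

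Library totals ranged from 43.2 to 72.9 M counts (M, 1000000 counts), and B3 and B3A copies together held 0.802 to 1.09 M of them. Their Y-linked copies gave 0.0156 to 0.0185 counts per 1000 autosomal counts in KO F1, WT F1 and WT F2, 1.25 to 3.13 in the male-labelled libraries and 1.58 in the library labelled KO F2. That library therefore had counts on Y copies at the level of the male-labelled libraries, against its label. X-linked copies gave 2.22 counts per 100 autosomal counts in it, 1.94 to 2.13 in the male-labelled libraries and 2.62 to 2.97 in the other female-labelled ones. Results that use the sex label are given with and without it. Marker genes of fibroblasts or other cell types and the Cgas locus were not analysed here, because no gene annotation of the build of the files (GRCm39) was used.

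B3 copies were the longer of both subfamilies, with a median of 190 bp against 175 bp for B3A. Copies of 150 to 200 bp made up 48.3% of B3 and 60.8% of B3A, and copies of 200 to 250 bp made up 33.1% and 12%. The annotation split 5.19% of B3 and 7.31% of B3A copies into several pieces. Together they covered 39.1 Mb. They were densest on chromosome 11, with 128 copies per Mb, and least dense on Y, with 42.6 copies per Mb. The X chromosome held 62.7 copies per Mb, below all autosomes, which ranged from 69.2 to 128.

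A single copy carried few counts. The median over copies of the mean count per library was 2.38, and 1488 copies (0.655%) had no count in any library. Copies that overlapped an OCR by at least 1 bp had a median of 14.3 counts, after the split with the OCR, and copies outside OCRs had 2.25. Of the copies, 6124 of B3 (4.36%) and 4055 of B3A (4.67%) overlapped an OCR. The same share was 3.70% for B2_Mm1a, 3.19% for B2_Mm1t, 4.20% for B2_Mm2, 3.90% for Alu, 4.45% for B4, 5.13% for ID and 8.04% for MIR. B3 and B3A thus stood above the other B2 subfamilies and Alu, near B4, and below ID and MIR. These shares describe 1 set of OCRs and have no replicates. They include copies on X and Y, and were not compared between subfamilies with autosomal copies alone. On X the share of B3 and B3A copies overlapping an OCR was 2.24%, and on Y it was 0 of 3868 copies, beside 25.3 and 0.958 OCRs of any kind per Mb. On the autosomes OCRs numbered 61.0 to 97.0 per Mb and the share ran from 4.00% to 5.64%.

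Outside OCRs, counts on B3 and B3A copies fell off with distance from the nearest OCR. CPM here are counts per M counts of the whole table, given per Mb of copy sequence. B3 copies within 1 kb of an OCR had 587 ± 57.0 CPM per Mb (SD, n = 8 libraries), those at 1 to 5 kb had 356 ± 54.7, those at 5 to 20 kb 247 ± 47.8, those at 20 to 100 kb 157 ± 41.3 and those at 100 kb or more 89.6 ± 31.3. B3A copies went from 615 ± 51.4 within 1 kb to 111 ± 39.2 at 100 kb or more. The order of the 5 distance classes was the same for both subfamilies. The classes include copies on X and Y. Y held 3048 B3 and 820 B3A copies, at 0.958 OCRs per Mb, and together they had 30.8 CPM per Mb outside OCRs. The classes were not repeated with autosomal copies alone. Spread between libraries grew in relative terms with distance: over the 8 libraries B3 copies within 1 kb ranged from 514 to 674 CPM per Mb, and those at 100 kb or more from 45.9 to 132. The median distance from a copy to the nearest OCR was 3.80 kb for B3 and 4.14 kb for B3A, against 3.25 kb for B2_Mm2 and for Alu. B2_Mm2 and Alu copies showed the same order of distance classes.

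**Figure D1:**
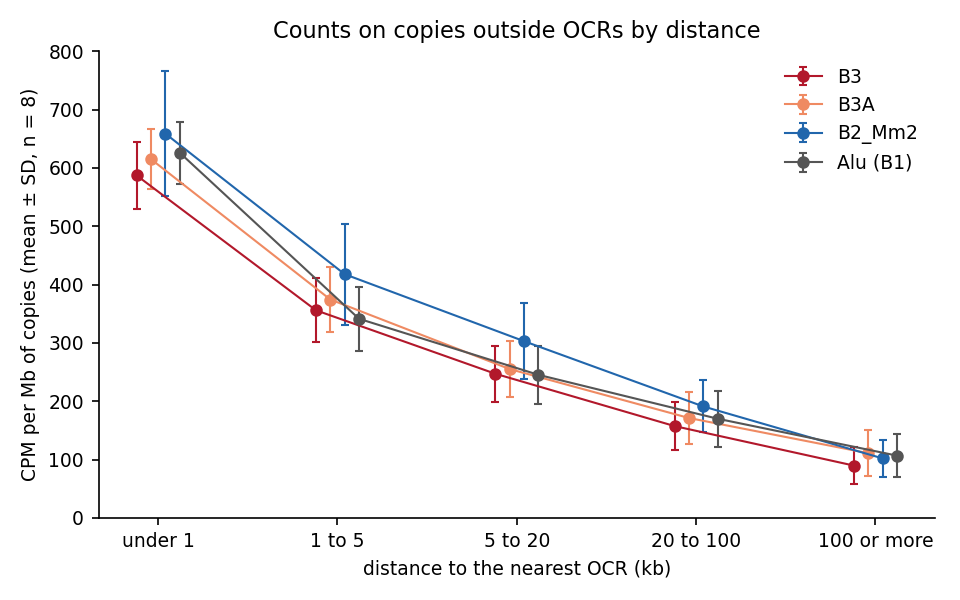
Counts on copies outside OCRs, in CPM per Mb of copy sequence (y axis, mean ± SD over 8 libraries), in 5 classes of distance to the nearest OCR in kb (x axis). B3 goes from 587 within 1 kb to 89.6 at 100 kb or more, and B3A, B2_Mm2 and Alu follow the same order of classes.

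Per kb of sequence, B3 copies held fewer counts than B3A in every library. The within-library ratio of B3 to B3A averaged 0.944 (0.921 to 0.970 over the 8 libraries, adjusted p = 0.0104, exact two-sided sign-flip permutation test, 4 ratios). Against B2_Mm1a, B3 held 0.664 times as many counts per kb (0.557 to 0.810, adjusted p = 0.0104 by the same exact test). Against B2_Mm2 the ratio was 0.873 (0.782 to 0.961, adjusted p = 0.0104 by the same exact test), a call that ended when counts were taken per copy (log2 ratio -0.076, adjusted p = 0.133, exact test). Against B2_Mm1t it was 0.865, below 1 in 6 of 8 libraries (0.738 to 1.02, adjusted p = 0.0313 by the same exact test), and this call ended with autosomal copies alone, per copy, and when KO F2, KO M1, KO M2, WT F1, WT F2 or WT M1 was left out (adjusted p = 0.0625 without each of these libraries, exact test). With copies outside OCRs alone, the log2 ratio to B2_Mm1t was -0.39 in place of -0.21. Counted per copy rather than per kb, B3 was slightly above B3A, with a log2 ratio of 0.04 in place of -0.08. Per kb, the log2 ratio of B3 to B3A was -0.061 with autosomal copies alone and -0.047 with copies outside OCRs alone.

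Inside OCRs, copies can be compared with the rest of the peaks that hold them. For OCRs that contained exactly 1 repeat, and that repeat whole, read ends in the copy (its count times 2) and in the rest of the OCR (the OCR count less the copy count) can be recovered from the split counts. The recovered values were never negative (0 negative values in 25989 such OCRs), of which 772 held B3 and 439 held B3A. The read ends per bp in the copy divided by those in the rest of the OCR are called the copy-to-rest ratio. Read ends and bp were each summed over all OCRs of a repeat before dividing, so OCRs with more counts or greater length weigh more. Ratios of single OCRs were not computed, and the spread between OCRs was not tested.

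The copy-to-rest ratio of B3 was 0.820, 1.05, 0.931 and 1.01 in KO F1, F2, M1 and M2, and 0.918, 1.05, 0.974 and 0.848 in WT F1, F2, M1 and M2. For B3A it was 0.914, 1.07, 0.963 and 1.04 in the KO libraries and 0.978, 1.06, 1.01 and 0.896 in the WT libraries, in the same order. Over OCRs of all lengths the ratios thus lay on both sides of 1. Such values were also found in other repeats: LINE copies ranged from 0.974 to 1.04 over the libraries, LTR copies from 1.05 to 1.13 and DNA transposons from 0.952 to 0.971. Among the SINEs compared, Alu ranged from 0.590 to 0.688 over the libraries, B4 from 0.681 to 0.771, MIR from 0.816 to 0.859, B2_Mm2 from 0.617 to 0.832 and ID from 0.828 to 0.894. ID was above B3 in KO F1 (0.879) and WT M2 (0.862), and its difference from B3 and B3A was not tested. Within libraries B3 was above Alu 1.49-fold, above B4 1.30-fold and above B2_Mm2 1.30-fold, in 8 of 8 libraries each (adjusted p = 0.00879, exact two-sided sign-flip permutation test, 9 ratios). B3 was above MIR 1.14-fold, in 7 of 8 libraries (adjusted p = 0.0234 by the same exact test). B3A was above Alu 1.55-fold, B4 1.36-fold, B2_Mm2 1.36-fold and MIR 1.19-fold, in 8 of 8 libraries each (adjusted p = 0.00879 by the same exact test).

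**Figure D2:**
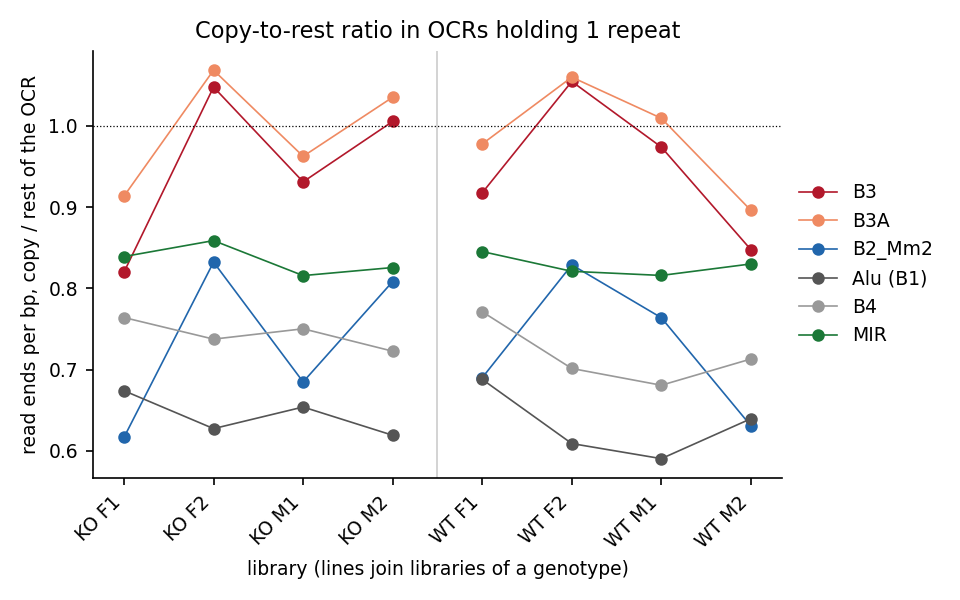
Read ends per bp in the copy divided by read ends per bp in the rest of the OCR (y axis, 1 marked by a dotted line), for OCRs holding exactly 1 repeat, in each library (x axis). Both were pooled over the OCRs of a repeat. B3 (0.820 to 1.05) and B3A (0.896 to 1.07) lie above Alu, B4 and B2_Mm2 in all 8 libraries.

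These OCRs differed in length and in the place of the copy between repeats. OCRs holding B3 had a median length of 393 bp and those holding B3A 413 bp, close to 367 bp for B2_Mm2 and shorter than 573 bp for Alu, 570 bp for B4, 606 bp for MIR and 457 bp for OCRs without any repeat. The copy made up a median of 42.9% of the OCR for B3 and 38.0% for B3A, against 19% for Alu. Where a copy lies can be given as its distance from the OCR centre in percent of the room it has, from 0 at the centre to 100 at an edge. The median was 52.5% for B3, 50.9% for B3A and 50% for B2_Mm2, and it was 72.0% for Alu, 70.9% for B4 and 56.3% for MIR, so Alu and B4 copies lay nearer to the edges.

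The comparison was therefore repeated among copies of 150 to 200 bp in OCRs of 300 to 500 bp, a setting chosen after the data were seen. There every repeat compared had ratios above 1 in every library, so the level of the ratio depends on the lengths taken. The median ratio over libraries was 3.24 for B3 (169 OCRs) and 2.48 for B3A (96 OCRs), against 2.21 for B2_Mm2 (91 OCRs), 1.57 for B4 (88 OCRs), 1.69 for MIR (84 OCRs) and 1.29 for Alu (14 OCRs). B3 stood above B2_Mm2 1.43-fold, B4 2.01-fold, MIR 1.88-fold and Alu 2.39-fold, and B3A 1.14-fold, 1.61-fold, 1.504-fold and 1.91-fold, in 8 of 8 libraries each (unadjusted p = 0.00781, exact sign-flip permutation test, the smallest p that 8 libraries can give). With copies of 150 to 200 bp in OCRs of any length, B3 stood above MIR only 1.10-fold and B3A 1.11-fold. That held in 7 of 8 libraries each (unadjusted p = 0.0234 and 0.0156, exact sign-flip permutation test). The folds over B2_Mm2 were 1.48 and 1.496, over B4 1.36 and 1.37, and over Alu 1.89 and 1.91, in 8 of 8 libraries each. The size of several folds thus depended on the OCR lengths taken. Over all lengths B3 had been below B3A (0.957-fold, in 8 of 8 libraries), so the order between B3 and B3A depends on the lengths too. Lengths still differed within the setting of OCRs of 300 to 500 bp. The median OCR was 345 bp for B3, 349.5 bp for B3A and 351 bp for B2_Mm2, against 388 bp for B4, 403 bp for MIR and 404.5 bp for Alu. The median copy was 183, 180.5 and 182 bp, against 163, 168 and 155 bp. The part of this in the folds against B4, MIR and Alu was not tested. The place of the copy was not matched either. B2_Mm2 copies in these OCRs lay nearer to the centre (22.9% of the room) than B3 (41.3%), B3A (37.5%) and MIR (38.7%) copies. B4 (56.1%) and Alu (74.6%) copies lay nearer to the edges. With the split counts restored, OCRs holding B3 had a median of 3.12 CPM per kb and those holding B3A 3.07, near 3.33 for OCRs without a repeat.

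The 8 libraries differed in how many counts lay on B2 elements relative to Alu, and the order of the libraries did not follow the genotype. Outside OCRs the counts per Mb of B3 divided by those of Alu were 0.888, 1.00, 0.922 and 0.946 in KO F1, F2, M1 and M2, and 0.905, 1.01, 1.02 and 0.915 in WT F1, F2, M1 and M2. KO F2, KO M2, WT F2 and WT M1 held the 4 highest values, which is 2 libraries of each genotype. For B3A the ratio was 0.934, 1.02, 0.952 and 0.970 in the KO libraries and 0.958, 1.03, 1.03 and 0.956 in the WT libraries, with the same 4 libraries highest. These 4 libraries were also the highest for B3 and B3A in the ratio to B4, in the ratio to Alu inside OCRs and in the copy-to-rest ratio. Several of these ratios share counts and are not independent. Other measures of both subfamilies had another set highest. It was KO F2, KO M1, WT F2 and WT M1 for the share of retrotransposon counts and for CPM per Mb overlapping an OCR. For CPM per Mb outside OCRs it was KO F2, KO M2, WT F1 and WT F2.

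The spread over libraries was larger in the younger relatives. The ratio to Alu outside OCRs ranged from 1.23 to 2.13 for B2_Mm1a, from 0.995 to 1.56 for B2_Mm1t and from 0.966 to 1.38 for B2_Mm2. KO F2, KO M2, WT F2 and WT M1 were the 4 highest in each. It ranged from 0.888 to 1.02 for B3 and from 0.934 to 1.03 for B3A, while B4, which is no B2 element, stayed between 0.886 and 0.919. ID and MIR, also no B2 elements, ranged from 1.14 to 1.24 and from 0.902 to 0.982. The highest library was 1.09-fold the lowest for ID and for MIR, close to 1.11-fold for B3A and 1.14-fold for B3. Library totals did not follow this order: KO F2, KO M2, WT F2 and WT M1 had 59.0, 43.2, 63.3 and 66.4 M counts, within or below the range of the other 4 libraries (54.1 to 72.9 M). The share of counts on repeats outside OCRs did not follow it either, with 23.4%, 28.5%, 22.2% and 16.7% in these 4 libraries and 17.0% to 27.9% in the others.

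**Figure D3:**
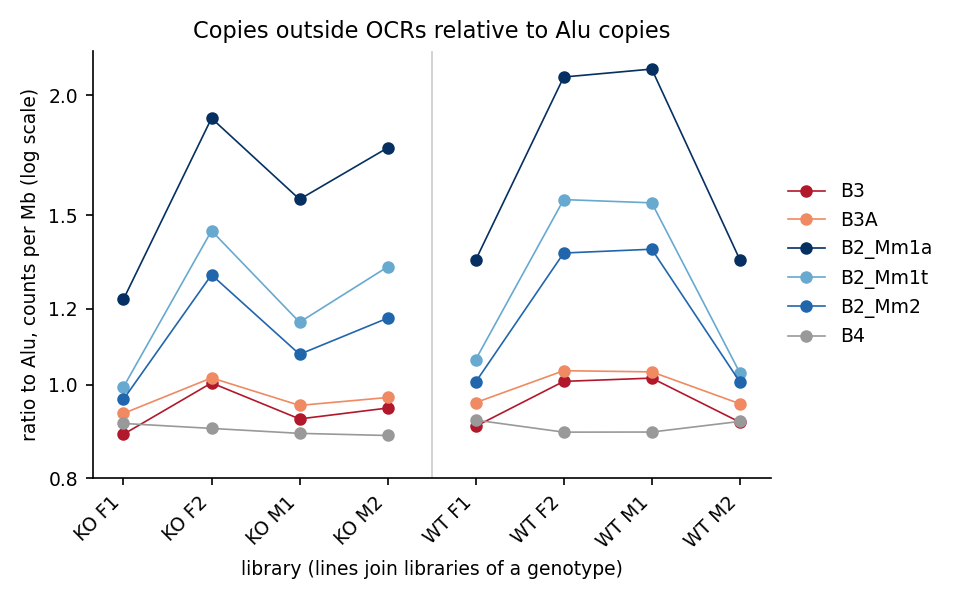
Counts per Mb outside OCRs divided by those of Alu copies (y axis, log scale), for 5 B2 subfamilies and B4, in each library (x axis). KO F2, KO M2, WT F2 and WT M1 are the 4 highest libraries for each B2 subfamily, and B4 stays between 0.886 and 0.919.

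Between genotypes, neither subfamily differed beyond the spread between libraries. Scaled with TMM factors, B3 had 9559, 11155, 8253 and 12826 CPM in KO F1, F2, M1 and M2, and 11426, 10760, 8940 and 8223 CPM in WT F1, F2, M1 and M2. KO M2 was highest and KO M1 lay just above the lowest library, WT M2, so the groups overlapped. The means were 10448 ± 1980 CPM in KO and 9837 ± 1504 CPM in WT (SD, n = 4 each), a log2 fold change of 0.10 (95% interval -0.37 to 0.56, adjusted p = 0.947, edgeR quasi-likelihood test over 861 subfamilies). B3A had 5905, 6543, 5008 and 7585 CPM in the KO libraries and 7013, 6398, 5298 and 5068 CPM in the WT libraries. Its groups overlapped in the same way, with KO M2 highest and KO M1 lowest. The log2 fold change of B3A was 0.09 (-0.37 to 0.54, adjusted p = 0.947, edgeR). As linear folds, the intervals run from 0.776 to 1.48 for B3 and from 0.773 to 1.46 for B3A, and a larger change in either direction lies outside them.

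No subfamily was called in that fit (0 of 861, a background of 0.0%, with 2 at an unadjusted p under 0.05 in edgeR, 16 in DESeq2 and 13 in limma voom with sample weights). The median log2 fold change over all 861 subfamilies was 0.12 and that of the 38 SINE subfamilies was 0.10, so B3 and B3A lay at or slightly below the shift of all retrotransposons. All 5 B2 subfamilies were on the same side of 0 as B3, and under DESeq2, whose scaling put the median of all subfamilies at 0.01, all 5 were on the other side, B3 at -0.02 and B3A at -0.03. Without KO M2 the log2 fold changes were -0.08 for both. Without the library labelled KO F2 they were 0.10 for both, and without the sex covariate 0.09 and 0.07. The direction thus depended on the scaling and on 1 library.

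**Figure D4:**
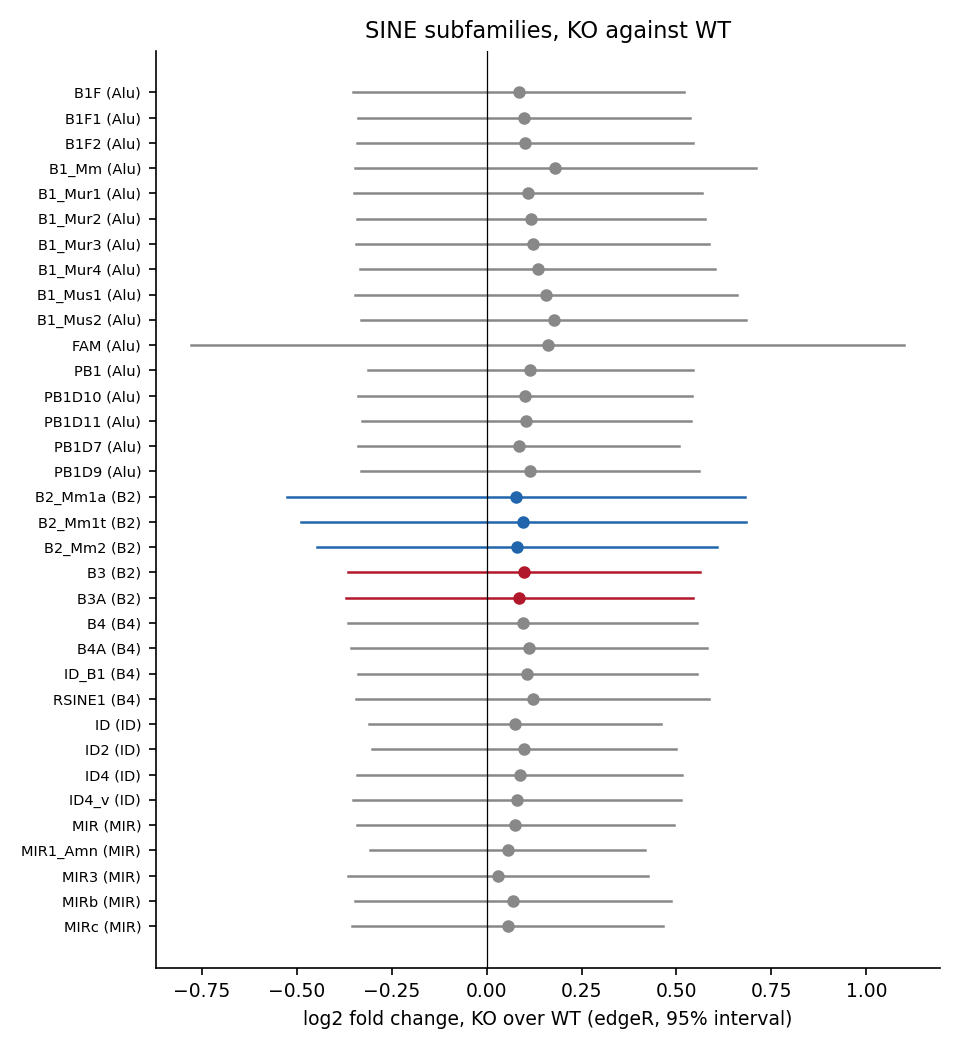
Log2 fold change of KO over WT (x axis, points, with 95% intervals from edgeR as lines) for SINE subfamilies of the families Alu, B2, B4, ID and MIR (y axis). B3 (0.10) and B3A (0.09) are red, the other B2 subfamilies are blue, and the intervals of all include 0.

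Shares of counts, which need no scaling between libraries, gave no difference either. B3 and B3A together made up 5.78%, 6.69%, 6.92% and 6.03% of retrotransposon counts in KO F1, F2, M1 and M2, and 5.75%, 6.78%, 7.30% and 6.34% in WT F1, F2, M1 and M2. The KO mean was 6.36% ± 0.539 and the WT mean 6.54% ± 0.660 (SD, n = 4 each, p = 0.657, exact two-sided permutation test, whose smallest possible p is 0.0286). Of their counts, 22.7% ± 3.34 in KO and 23.8% ± 3.27 in WT lay on copies overlapping an OCR (SD, n = 4 each, p = 0.657, exact permutation test), with KO M2 lowest at 19.2% and KO M1 highest at 27.2%. The ratio of B3 to Alu outside OCRs was 0.940 ± 0.0490 in KO and 0.961 ± 0.0592 in WT (p = 0.657, exact permutation test, n = 4 each), and that of B3A was 0.968 ± 0.0356 and 0.995 ± 0.0438 (p = 0.257, exact permutation test, n = 4 each). The copy-to-rest ratio of B3 was 0.951 ± 0.0998 in KO and 0.948 ± 0.0876 in WT (p = 0.971, exact permutation test, n = 4 each). Over the 14 comparisons of single subfamilies of this kind no adjusted p was below 0.923.

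Whether the genotypes differed alike in both sex labels was asked with an interaction term. The interaction term was 0.40 on the log2 scale for B3 (95% interval -0.57 to 1.36) and 0.39 for B3A (-0.57 to 1.35), with an adjusted p of 0.632 for each in edgeR. Without the library labelled KO F2 it was 0.51 and 0.46, and in DESeq2 with all libraries it was -0.02 for both.

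At the level of single copies, 24152 of the 227272 B3 and B3A copies held enough counts to be tested, in a fit over 442422 retrotransposon copies. None was called in edgeR (0 of 24152), beside a background of 0.0% over all tested copies, and limma voom with sample weights called none either (background 0.0%). DESeq2, which kept 107897 copies after its own filter, called 20 copies (0.0185%), and 0 of the 5297 B3 and B3A copies among them. At an unadjusted p under 0.05 edgeR had 622 B3 and B3A copies (2.58%, 374 of them higher in KO) against a background of 3.31%, and voom had 768 (3.18%) against 4.02%. For 658 tested copies (2.72%) the 4 KO libraries did not overlap the 4 WT libraries, against a background of 2.50%. The median log2 fold change was -0.02 over the tested B3 and B3A copies and 0.05 over all tested copies. These counts are near or below those of retrotransposon copies in general.

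The copies with the lowest p are given as values, since none passed the test. On the lower side, a B3A copy at chr13:71605740-71605873 (134 bp, outside OCRs) had 0.0319, 0.0483, 0.0425 and 0.0444 CPM in KO F1, F2, M1 and M2 and 0.252, 0.245, 0.310 and 0.191 CPM in WT F1, F2, M1 and M2. The groups did not overlap, and the values rest on 2 to 19 counts per library. Its log2 fold change was -2.52 (SE 0.52, adjusted p = 1.0, edgeR). A B3 copy at chr8:106220203-106220411 (209 bp, outside OCRs) had 0.160, 0.177, 0.297 and 0.155 CPM in the KO libraries and 0.432, 0.490, 0.799 and 0.898 CPM in the WT libraries. It too had no overlap, at 7 to 61 counts per library, with a log2 fold change of -1.66 (SE 0.35, adjusted p = 1.0, edgeR). The other copies on this side lay at chr6:49994627-49994835, chr16:18542029-18542206 and chr15:101004934-101005133, with log2 fold changes of -1.38, -1.66 and -1.29.

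On the higher side, a B3 copy at chr6:120062099-120062267 (169 bp, outside OCRs) had 0.367, 0.435, 0.269 and 0.510 CPM in KO F1, F2, M1 and M2 and 0.144, 0.0919, 0.0815 and 0.118 CPM in WT F1, F2, M1 and M2. The groups did not overlap, at 5 to 27 counts per library, and the log2 fold change was 1.83 (SE 0.41, adjusted p = 1.0, edgeR). The other copies on this side lay at chr8:34142339-34142441, chr5:66232513-66232678, chr11:61390109-61390254 and chr1:36475631-36475825, with log2 fold changes of 1.98, 1.52, 1.71 and 1.57. All 5 lay outside OCRs.

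The copies with the most counts were those in OCRs, and their levels overlapped between genotypes. The highest was a B3A copy at chr2:117958101-117958276, wholly inside an OCR, with 3.49, 6.33, 8.81 and 5.34 CPM in KO F1, F2, M1 and M2 and 5.84, 8.51, 12.6 and 7.47 CPM in WT F1, F2, M1 and M2. WT M1 was highest and KO F1 lowest, and the groups overlapped (log2 fold change -0.52, adjusted p = 1.0, edgeR). Next came B3 copies at chr3:145126392-145126594 (6.05 ± 0.744 CPM in KO, 6.48 ± 1.03 in WT) and chr19:5837187-5837394 (5.71 ± 0.784 and 6.15 ± 1.23; SD, n = 4 each). Outside OCRs the highest copies were B3 copies. The highest of them lay on sequence outside the autosomes, X and Y (3.01 ± 0.428 and 2.95 ± 0.637 CPM in KO). Others lay at chr19:5878506-5878683 (2.59 ± 0.653 CPM in KO, 2.98 ± 0.285 in WT) and chr19:5478192-5478400 (2.39 ± 0.298 and 2.81 ± 0.533).

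OCRs gave more counts per feature. Of 185268 OCRs, 9648 (5.21%) shared at least 1 bp with a B3 or B3A copy; 5941 held B3, 3956 held B3A and 249 held both. None of the 9648 was called in edgeR, and neither was any OCR of the whole set (0.0%), nor in limma voom with sample weights (0.0%). At an unadjusted p under 0.05 edgeR had 691 of them (7.16%, 456 higher in KO), against a background of 9.91%, and voom had 1112 (11.5%), against 15.3%. In 483 of them (5.01%) the 4 KO libraries did not overlap the 4 WT libraries, against a background of 6.04%. The median log2 fold change was 0.00 over OCRs holding B3 or B3A and -0.01 over all OCRs. Without the library labelled KO F2, edgeR again called 0 of the copies and 0 of the OCRs. DESeq2 differed in its calls: it called 82 of 9135 OCRs holding B3 or B3A (0.898%), 72 higher and 10 lower in KO, against a background of 1.46% over 181676 OCRs (1.23% higher and 0.222% lower).

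The OCRs with the lowest p in edgeR had no overlap between genotypes, and all 10 passed in DESeq2. They were picked by p from the same counts, so neither the lack of overlap nor the DESeq2 calls are an independent check. Several of these OCRs share only a short end with their B3 or B3A copy, and the overlap is given for each. OCRs higher in KO were led by chr17:46920622-46921407 (786 bp, of which 31 bp lie in a B3 copy), with 4.67, 4.06, 5.14 and 5.71 CPM in KO F1, F2, M1 and M2 and 3.17, 1.96, 1.44 and 1.82 CPM in WT F1, F2, M1 and M2. WT F1 lay nearest to the KO libraries. The log2 fold change was 1.25 (SE 0.26), with an adjusted p of 0.334 in edgeR and 0.00387 in DESeq2. At chr17:71139600-71140079 (480 bp, 47 bp in a B3 copy) the KO libraries had 3.16, 6.28, 2.65 and 7.72 CPM and the WT libraries 1.11, 2.24, 1.41 and 0.969 CPM. KO F2 and KO M2 were well above KO F1 and KO M1 there, and WT F2 was the highest WT library. Its log2 fold change was 1.79 (SE 0.40), with an adjusted p of 0.334 in edgeR and 0.00549 in DESeq2.

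The other OCRs on this side lay at chr1:119462034-119462663 (58 bp in a B3 copy), chr19:11966696-11967095 (167 bp, a whole B3 copy) and chr16:57066940-57067333 (125 bp in a B3A copy), with log2 fold changes of 1.199, 1.70 and 1.36 and KO means of 3.68, 1.25 and 1.73 CPM against WT means of 1.58, 0.380 and 0.670 CPM. Among OCRs lower in KO, chr17:6696384-6697784 (1401 bp, with a whole B3A copy of 176 bp) had the highest level and the smallest change, with 14, 13.7, 13.2 and 15.9 CPM in the KO libraries and 19.1, 20.6, 20.4 and 17.7 CPM in the WT libraries. KO M2 and WT M2 lay nearest to each other. Its log2 fold change was -0.46 (SE 0.11), with an adjusted p of 0.334 in edgeR and 0.0447 in DESeq2. Another OCR on the same chromosome, chr17:6735249-6735979 (56 bp in a B3A copy), had 2.24 ± 0.353 CPM in KO and 3.66 ± 0.357 CPM in WT (SD, n = 4 each, log2 fold change -0.71).

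At chr6:49994444-49994921 (478 bp) the KO libraries had 0.904, 0.770, 0.725 and 0.752 CPM and the WT libraries 1.62, 1.69, 2.11 and 1.21 CPM. All KO values lay below the lowest WT value, WT M2, and the log2 fold change was -1.06 (SE 0.26, adjusted p = 0.334 in edgeR and 0.0271 in DESeq2). This OCR wholly contains the B3A copy at chr6:49994627-49994835 named above, which was lower in KO with 0.381 ± 0.0444 CPM against 1.00 ± 0.317 CPM in WT (SD, n = 4 each); because they share read ends, both values describe the same cuts. The remaining OCRs lay at chr3:104257553-104258364 (20 bp in a B3A copy) and chr6:104893760-104894223 (212 bp, a whole B3 copy), with log2 fold changes of -0.95 and -1.25.

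**Figure D5:**
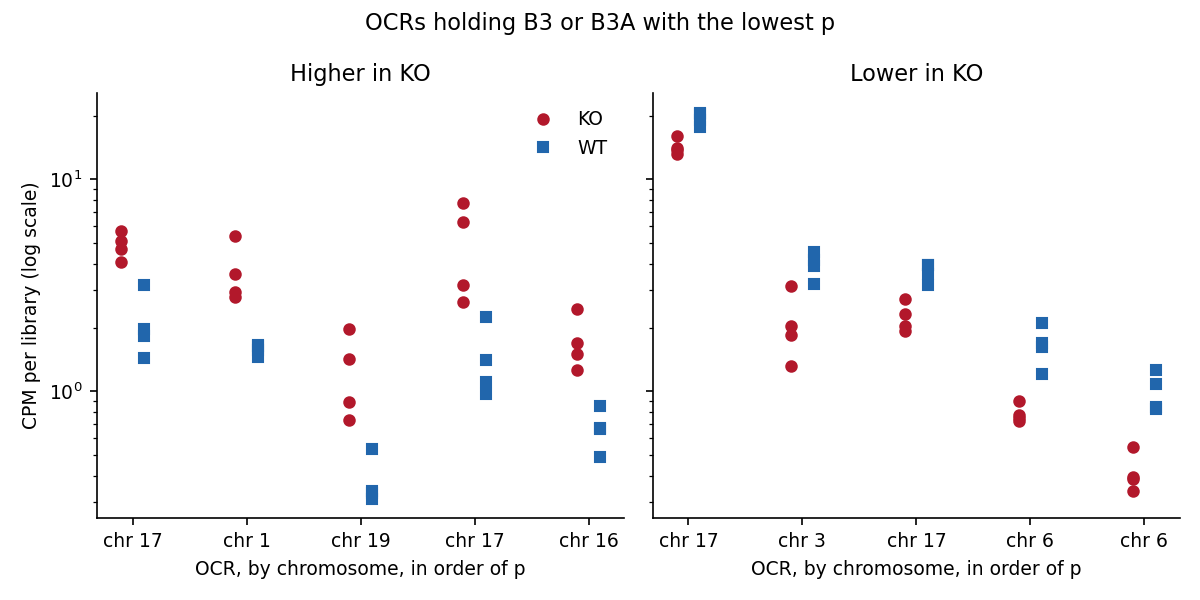
CPM in each library (y axis, log scale) of the 10 OCRs holding a B3 or B3A copy with the lowest edgeR p, by chromosome in order of p (x axis), with KO as circles and WT as squares. The KO and WT values do not overlap in any of them, and none has an edgeR adjusted p below 0.334.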

How the data were processed

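The authors deposited 1 table of estimated counts, made with featureCounts 2.0.3 per the file headers over MACS2 peaks and annotated repeats, in GRCm39. Per the file headers, only pairs with both ends aligned were used, reads were counted at their 5' ends, and an end lying in more than 1 region was divided evenly over them. The submitters' processing notes also name Trim Galore, Bowtie2, SAMtools, Picard and bedtools. The treatment of reads with several equal matches, and any shift for the transposase, were not given in the sources used here.

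Counts were rounded to whole numbers for the models. edgeR 4.0.16 (R 4.3.3) quasi-likelihood fits with the sex label as covariate were run over all subfamilies, all retrotransposon copies and all OCRs that passed filterByExpr (minimum count 10), library sizes from the total of the table, TMM factors and Benjamini-Hochberg adjustment over each whole table at 0.05. Shares and ratios were compared by exact permutation over 4 against 4 libraries (70 assignments) or by exact sign flips over 8 libraries (256 assignments). P-values of KO against WT measure the spread between mice, with 4 libraries per group. Those of the sign-flip tests measure how far a ratio repeats over the 8 libraries, which all count the same copies and OCRs. They do not measure the spread between copies or between OCRs. Counts per library are 43.2 to 72.9 M, and single copies outside OCRs hold about 2.25 counts, which limits copy-level tests. B3 and B3A, the comparison families and all lists were chosen with earlier results of these data known. Named by rule were the other B2 subfamilies and the families Alu, B4, ID and MIR for comparison, the 5 B3 or B3A copies and the 5 OCRs holding one with the lowest edgeR p in each direction, and the 5 copies with the highest mean CPM outside and in OCRs; the report prints values for most of these. Alternatives were DESeq2 1.42.0, voom with library weights (limma 3.58.1), other scalings, filters and denominators, no sex covariate, a replicate block, autosomal copies, copies outside OCRs and leaving out each library. The ratios to Alu, the copy-to-rest ratios and their alternatives were chosen after the data were seen. Models and exact tests were tested on simulated data. Gene names, cell type markers, the Cgas locus and copy sequences were not analysed here.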

Additional observations from a re-analysis of the deposited data

Results flagged for a closer look

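In each group of 4 libraries, the gap between the most extreme library and its nearest neighbour was compared with the range of the group. Of 96 such groups checked, 2 had a library standing apart by Dixon's 95% criterion, where chance alone gives about 1 in 20. For the B3 copy at chr8:106220203-106220411, KO M1 had 0.297 CPM and the other KO libraries 0.155 to 0.177 CPM; KO M1 was still below every WT library. For the OCR at chr19:11966696-11967095, WT F2 had 0.537 CPM and the other WT libraries 0.313 to 0.339 CPM; WT F2 was still below every KO library.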

How the results depend on the processing

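Of 186 alternatives to the 16 main results, 153 kept the direction and the side of the threshold. Some could not cross the threshold. In the exact tests of KO against WT, the smallest possible p is 0.0571 with a library left out and 0.125 with the replicate block. There only the direction could change. For the copies and OCRs called, only the number called was compared. The log2 fold change of B3 (main 0.10) became -0.023 with DESeq2, -0.051 with limma voom, -0.022 with TMM factors over subfamilies alone and -0.082 without KO M2, and that of B3A (0.09) became -0.031, -0.046, -0.031 and -0.084; leaving out each library gave -0.082 to 0.19 for B3 and -0.084 to 0.18 for B3A. The interaction became -0.017 for B3 and -0.021 for B3A with DESeq2. DESeq2 called 82 OCRs holding B3 or B3A where edgeR called 0. The difference in share of retrotransposon counts (KO minus WT, main -0.184 percentage points) was 0.0614 over the whole table and -0.449 to 0.0690 over single libraries left out, above 0 without KO F1 (0.00729) and without WT M1. The difference in the percent of counts on copies overlapping an OCR (main -1.11 percentage points) ran from -2.62 to 0.0681, above 0 without KO M2. The copy-to-rest difference of B3 (main 0.00265) was -0.0203 for copies of 150 to 200 bp and ran from -0.0310 to 0.0463 over libraries left out, and that of B3A (0.00920) ran from -0.0207 to 0.0363. The log2 ratio of B3 to B3A per kb reversed per copy (0.038). That of B3 to B2_Mm1t (main -0.21) lost its call with autosomal copies (-0.17), per copy (-0.17) and without KO F2, KO M1, KO M2, WT F1, WT F2 or WT M1 (-0.23 to -0.18), and kept it without KO F1 or WT M2 (-0.24 each); the log2 ratio of B3 to B2_Mm2 (main -0.20) lost its call per copy (-0.076). The cause of these changes was not tested. For the 20 copies and OCRs named by lowest p, 275 of 285 alternatives kept direction and call, and the other 10 were the DESeq2 calls of OCRs. The call that was kept is that of not passing. These copies and OCRs were picked by p and direction from the same counts, so the kept direction is no independent check of them.

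Same-numbered libraries of both genotypes come from different mice and share only a number. Their deviations correlated with r = 0.58, 0.61, -0.29 and -0.46 over OCRs for F1, F2, M1 and M2, and r = 0.60, 0.28, 0.62 and -0.21 over retrotransposon subfamilies; 4 of 8 libraries over OCRs and 5 of 8 over subfamilies correlated best with their own number. With the replicate block, the log2 fold change was 0.08 for B3 and 0.07 for B3A, and 0 copies and 0 OCRs holding B3 or B3A were called. The share difference kept -0.184 percentage points (p = 0.250, exact paired test, n = 4 pairs, smallest possible p 0.125). The low counts per copy limit which copies could be tested. Leaving out KO M2 lowered the OCRs holding B3 or B3A at an unadjusted p under 0.05 in edgeR from 691 to 362, and all OCRs from 18369 to 9649.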
